A study of Mus musculus with 4 samples.

Results

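The genes for synaptic vesicle release analyzed here are *Snap25*, *Stx1a*, *Vamp2*, *Syt1*, *Syt4*, *Syt11*, *Rab3a*, *Rab3c* and *Sv2a*, 9 of the 21938 protein-coding genes of the mouse annotation. They were chosen by name, and every ATAC-seq peak in their gene bodies with 20 kb on each side was taken. ATAC-seq marks open chromatin by the places where a transposase can insert into DNA. The peak lists of 4 libraries, joined where peaks overlapped by at least 1 base, gave 211 regions in these windows of 357570 in the genome. The libraries came from a pair of SMC lines, SMC 1 and SMC 2, and a pair of non-SMC lines, non-SMC 1 and non-SMC 2, with 1 library per line, and the description of the series calls SMC and non-SMC paired. Lines of the same number were taken as pairs, but what they share is not given in the sources used here. All were untreated cell lines established from lung tumors of *RP* mice, of genotype Rb1L/L, Trp53L/L (floxed alleles) on a mixed background of C57Bl/6, Balb-c and S129. An adenovirus with Cre under the CMV promoter, which is not limited to one cell type, was given through the trachea to start the tumors, so both types share the loss of *Rb1* and *Trp53*. SMC had been sorted as NCAM hi CD44 lo/- cells and non-SMC as NCAM lo CD44 hi cells, and in culture SMC grew in suspension while non-SMC grew attached, so that growth form and cell type cannot be told apart here. The age of the mice when tumors were taken, the number of mice behind the lines and whether a line is a clone are not given in the sources used here.

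Release of a synaptic vesicle is the fusion of a transmitter-filled vesicle with the plasma membrane when calcium enters the cell. VAMP2 on the vesicle and syntaxin 1A and SNAP25 on the plasma membrane are SNARE proteins, which zip together and draw the membranes into contact. Synaptotagmins sit on vesicles, and SYT1 is the calcium sensor of fast release. The RAB3 proteins are small GTPases that bring vesicles to release sites, and SV2A is a vesicle membrane protein needed for normal release. Neuroendocrine cells use the same machinery to secrete hormones and amines from granules, and small cell lung cancer is a neuroendocrine tumor.

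The lists held from 91118 to 154039 peaks and reached down to a p-value of 0.01. Peaks were ranked within their own list by fold enrichment over the local background. The percentile of a peak is its rank as a percentage of the list length, with tied peaks given their average rank. The implied depth differed 3.37-fold between the shallowest library, SMC 1, and the deepest, SMC 2. Ranks depend on the depth of a list as well as on the site, so lists were compared first by the positions of their peaks. Among the sort markers, the *Cd44* promoter had no peak in SMC 1 and 2 peaks in SMC 2, the higher at the 43.1 percentile, against 1 peak at the 94.4 percentile in non-SMC 1 and 1 at 98.4 in non-SMC 2. *Ncam1* had promoter peaks in all 4 lines. The promoter of *Chga*, a neuroendocrine granule protein, had peaks in both SMC lines alone. Of the other neuroendocrine markers reported, *Insm1* also had promoter peaks in non-SMC 1, at up to the 15.0 percentile against 74.0 and 73.5 in SMC, and *Syp* had promoter peaks in all 4 lines. Of 7 markers of other lung cells, *Scgb1a1* had no promoter peak in any line, *Pecam1* had one in both non-SMC lines alone, *Col1a1* had one in all 4, and *Ptprc*, *Cd68*, *Cdh5* and *Sftpc* had other combinations. Whether other cells contribute to the peaks described was not tested.

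The DNA under the peaks on which the results turn is shown for *Syt1*, *Rab3c* and *Snap25*, because their strongest peaks of one cell type lie in introns. SMC-only stands for a region or promoter with a peak in both SMC lines but no non-SMC line, and non-SMC-only for the reverse. Intron pieces are stretches of mm10 with 75 bp on each side of the summit of the highest peak, and the promoter pieces are the stretches before the start site in the RefSeq promoter table (GRCm38). All are written 5′ to 3′ on the strand of the gene, which is minus for *Syt1* and *Rab3c* and plus for *Snap25*, and none overlaps an annotated exon. Capitals mark the E-boxes CAGCTG and CAGATG, the kind of site that basic helix-loop-helix factors bind, and the AP-1 motif TGANTCA, searched on both strands.
*Syt1*, before the start site (chr10:109010983-109011225): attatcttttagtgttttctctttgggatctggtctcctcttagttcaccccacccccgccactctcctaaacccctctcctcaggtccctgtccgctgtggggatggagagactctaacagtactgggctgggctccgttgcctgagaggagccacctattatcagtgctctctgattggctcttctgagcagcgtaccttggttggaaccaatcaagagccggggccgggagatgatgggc
*Syt1*, intron at 73723 bp, SMC-only (chr10:108937184-108937334): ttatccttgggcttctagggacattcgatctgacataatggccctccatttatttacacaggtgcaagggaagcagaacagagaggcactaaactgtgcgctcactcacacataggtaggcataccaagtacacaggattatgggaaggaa
*Syt1*, intron at 472269 bp, non-SMC-only (chr10:108538638-108538788): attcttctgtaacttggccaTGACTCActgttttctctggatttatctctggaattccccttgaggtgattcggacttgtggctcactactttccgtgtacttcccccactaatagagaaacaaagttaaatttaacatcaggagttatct
*Rab3c*, promoter (chr13:110280207-110280456): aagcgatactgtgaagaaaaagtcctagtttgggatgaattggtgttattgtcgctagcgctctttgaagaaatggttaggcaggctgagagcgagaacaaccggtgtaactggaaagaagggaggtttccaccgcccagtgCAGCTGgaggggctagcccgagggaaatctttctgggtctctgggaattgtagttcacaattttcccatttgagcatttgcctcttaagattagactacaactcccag
*Rab3c*, intron at 136163 bp, SMC-only (chr13:110144758-110144908): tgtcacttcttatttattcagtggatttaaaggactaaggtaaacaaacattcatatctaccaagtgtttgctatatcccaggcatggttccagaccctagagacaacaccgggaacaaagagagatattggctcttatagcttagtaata
*Rab3c*, intron at 130429 bp, SMC-only (chr13:110150492-110150642): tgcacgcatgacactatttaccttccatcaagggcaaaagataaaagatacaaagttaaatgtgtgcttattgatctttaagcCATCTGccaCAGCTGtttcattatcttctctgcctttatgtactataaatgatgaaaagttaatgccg
*Rab3c*, intron at 50700 bp, non-SMC-only (chr13:110230221-110230371): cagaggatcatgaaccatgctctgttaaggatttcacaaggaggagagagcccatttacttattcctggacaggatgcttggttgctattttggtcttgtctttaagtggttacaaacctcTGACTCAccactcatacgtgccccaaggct
*Snap25*, intron at 11093 bp, SMC-only (chr2:136724471-136724621): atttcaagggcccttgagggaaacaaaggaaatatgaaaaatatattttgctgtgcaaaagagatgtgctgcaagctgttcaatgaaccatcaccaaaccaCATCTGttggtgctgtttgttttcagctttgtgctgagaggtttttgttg
The *Syt1* promoter piece, the *Syt1* intron piece at 73723 bp and the *Rab3c* intron piece at 136163 bp hold none of these letters. The piece of the next-ranked *Syt1* SMC-only region, at 234281 bp, is not printed and holds none either. The *Rab3c* piece at 130429 bp holds both E-boxes, and each of the non-SMC-only pieces holds an AP-1 motif. Among 32851 RefSeq promoter pieces, the kind printed before the start sites, 13% held CAGCTG, 14.4% held CAGATG and 6.75% held TGANTCA. These shares do not apply to the intron pieces. Within 100 bp of the summit, a slightly wider stretch, 55.1% of all non-SMC-only regions in the genome held TGANTCA. Of all SMC-only regions, 21.1% held CAGCTG and 19.7% held CAGATG there. On the other strand the second E-box reads CATCTG. A match describes the sequence and is not a measured binding site.

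At the promoters, the 6 kb around the transcription start site (TSS) of a gene, none of the 9 genes was SMC-only and none was non-SMC-only, against 3.08% and 2.45% of all protein-coding genes. *Snap25*, *Stx1a* and *Rab3a* had a promoter peak in all 4 lines, a pattern found at 48.7% of all protein-coding genes. *Syt1*, *Syt4* and *Rab3c* had strong promoter peaks in both SMC lines, a lower-ranked one in non-SMC 1 and none in non-SMC 2. *Vamp2*, *Syt11* and *Sv2a* had no promoter peak in 2 of the 4 lines. With 2 lines of each type a two-sided exact permutation test cannot give a p below 1 in 3, so the types were not tested against each other, and values are given for each line. In bulk libraries, fewer open cells and less signal in each cell cannot be told apart.

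The SNARE genes differed in which lines had a promoter peak. *Snap25* lies on the plus strand of chromosome 2 from 136713453 to 136782428. Its highest promoter peak was at the 87.0 percentile in SMC 1, 95.6 in SMC 2, 80.3 in non-SMC 1 and 73.6 in non-SMC 2. The SMC lines were above the non-SMC lines in rank. Fold enrichment overlapped between the types, at 6 and 8.47 in SMC 1 and 2 and 7.24 and 4.52 in non-SMC 1 and 2. The summit of the highest peak was 156 and 70 bp downstream of the TSS in SMC 1 and 2. It was 946 and 788 bp downstream in non-SMC 1 and 2. Non-SMC 2 also had a lower peak, at the 52.9 percentile, with its summit 0.061 kb downstream. No peak of non-SMC 1 covered the TSS of *Snap25*, and one in each of the other lines did. *Stx1a*, on the plus strand of chromosome 5 from 135023482 to 135051100, had its highest promoter peak at the 73.6, 48.2, 72.7 and 72.3 percentile in SMC 1 and 2 and non-SMC 1 and 2. The summit lay 14 to 62 bp from the TSS except in SMC 1, where it was 1406 bp upstream, so the ranges of the types overlapped and the sites were not all the same. *Vamp2*, on the plus strand of chromosome 11 from 69088490 to 69092384, had promoter peaks only in SMC 2, the highest at the 81.8 percentile, and non-SMC 1, the highest at the 17.3 percentile. These are the 2 deepest libraries, and no peak in either covered the TSS. The highest peaks had summits 1179 and 1282 bp downstream in SMC 2 and non-SMC 1. A weaker peak of SMC 2, at the 24.9 percentile, had its summit 36 bp downstream of the TSS.

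Among the synaptotagmins, the promoters of *Syt1* and *Syt4* had peaks near the top of both SMC lists. *Syt1* is a minus-strand gene of chromosome 10 (108497650 to 109010982). Its promoter peak had a fold enrichment of 12.3 (99.2 percentile, -log10 q of 25.7) in SMC 1 and 12.4 (99.0 percentile, -log10 q of 55.7) in SMC 2. In non-SMC 1 the fold enrichment was 8.85 (86.6 percentile, -log10 q of 15.0), and non-SMC 2 had no peak there. The peak was 1466 and 1601 bp long in the SMC lines and 481 bp in non-SMC 1, all across the TSS. *Syt4*, a synaptotagmin of dense-core vesicles that binds calcium poorly, is a minus-strand gene of chromosome 18 (31437808 to 31447406). Both SMC lines had a peak at the 96.5 and 99.3 percentile with a summit 1978 and 1967 bp upstream of the TSS, and neither non-SMC line had one there. Over the TSS itself, SMC 1 had a peak at the 92.0 percentile and SMC 2 at the 87.3 percentile. In non-SMC 1 a weak peak in the same region, at the 22.8 percentile with a -log10 q of 0.955, kept the promoter from being called SMC-only. *Syt11*, a synaptotagmin without calcium binding, is a minus-strand gene of chromosome 3 (88744700 to 88775164). It had a promoter peak at the 12.4 percentile in SMC 1, and in non-SMC 1 it had one at the 64.8 percentile and a weaker one, at the 38.6 percentile, nearer the TSS. SMC 2 and non-SMC 2 had none. Just outside its promoter window, 3495 bp downstream in an intron, peaks were at the 93.2 percentile in SMC 1, 92.8 in SMC 2 and 78.1 in non-SMC 1, with none in non-SMC 2.

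The 2 RAB3 genes differed from each other. *Rab3a*, on the plus strand of chromosome 8 from 70754679 to 70758677, had a peak across the TSS in every line, at the 97.0 percentile in SMC 1, 93.2 in SMC 2, 96.8 in non-SMC 1 and 97.0 in non-SMC 2. Its ranks overlapped between the types, and its -log10 q ran from 17.7 in SMC 1 to 80.1 in non-SMC 1. *Rab3c* is a minus-strand gene of chromosome 13 (110054187 to 110280996). Its promoter peak lay 687 to 808 bp downstream of the 5′ end of the gene. It was at the 97.7 percentile in SMC 1, 98.1 in SMC 2 and 90.2 in non-SMC 1, and non-SMC 2 had none. Fold enrichment was 10.1 in SMC 1, 10.7 in SMC 2 and 10.1 in non-SMC 1, with -log10 q of 13.5, 26.4 and 18.5. The printed *Rab3c* promoter piece lies in part under this peak, which in each line that has it spans the end of the piece next to the RefSeq start site. *Sv2a*, on the plus strand of chromosome 3 from 96181151 to 96195521, had only weak promoter peaks, at the 18.6 percentile in SMC 2 and 14.2 in non-SMC 1, and none in the other lines. When non-SMC 1 was left out, the promoters of *Syt1*, *Syt4* and *Rab3c* were SMC-only, a pattern found at 6.51% of all genes in that setting. When non-SMC 2 was left out instead, the same promoters had a peak in every remaining line.

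**Figure D1:**
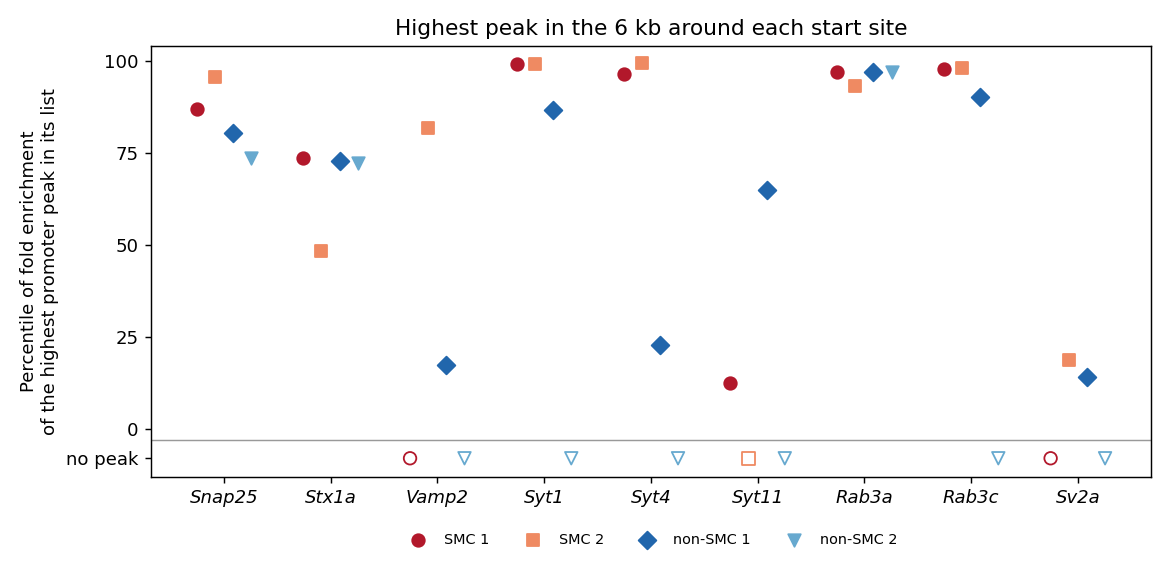
Percentile of fold enrichment of the highest peak in the 6 kb around the TSS (vertical axis, percent of the peaks in that line's list) for each gene (horizontal axis) and line, with open symbols for no peak. *Syt1*, *Syt4* and *Rab3c* are above 96 in both SMC lines, lower in non-SMC 1 and without a peak in non-SMC 2, and *Rab3a* is above 93 in all 4 lines.

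Over the whole windows, 15 of the 211 regions were SMC-only (7.11%) and 13 were non-SMC-only (6.16%), against 4.37% and 7.33% of all regions in the genome. A peak in all 4 lines was found at 14 regions (6.64%, against 3.81% of all regions), and 147 regions (69.7%) had a peak in a single line, 62 of them in SMC 2. At least 1 SMC-only region lay in 7 of the 9 windows, against 37.6% of all protein-coding genes, and at least 1 non-SMC-only region also in 7, against 50.9%. Longer windows hold more regions, and the median window was 67.6 kb for these 9 genes and 57.4 kb for all protein-coding genes. *Syt1* and *Rab3c*, with windows of 553 and 267 kb, held 10 of the 15 SMC-only regions, 5 each. *Snap25*, *Stx1a*, *Syt4*, *Rab3a* and *Sv2a* held 1 each, and *Vamp2* and *Syt11* none. Of the non-SMC-only regions, *Syt1* and *Vamp2* held 3 each, *Stx1a* and *Rab3a* 2 each, *Snap25*, *Rab3c* and *Sv2a* 1 each, and *Syt4* and *Syt11* none. Inside the bodies of the genes themselves lay 11 SMC-only and 6 non-SMC-only regions. The windows of *Stx1a*, *Vamp2*, *Syt1*, *Rab3a* and *Sv2a* hold the TSS of other genes, and the body of *Rit1* reaches into the flank of the *Syt11* window. Of the 14 regions open in all 4 lines, 8 lay within 3 kb of the TSS of another gene, among them *Abhd11*, *Dnajc30*, *Tmem107* and *Per1*.

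*Syt1* had 5 SMC-only regions spread over its long introns. The strongest, chr10:108936782-108937516, had its summit 73723 bp downstream of the TSS, and its peaks were at the 98.7 percentile in SMC 1 and the 99.7 percentile in SMC 2, with -log10 q of 16.5 and 37.3. Its sequence is printed above as the first of the *Syt1* intron pieces. The next, chr10:108776468-108777056, was 234281 bp downstream, at the 94.9 and 98.0 percentile. Of the other 3, those at 384323 and 331076 bp reached the 96.9 and 95.1 percentile in SMC 2 and the 87.7 and 76.5 percentile in SMC 1, and the one at 453414 bp was weak in both lines, at the 52.0 and 68.2 percentile. The gene also had 3 non-SMC-only regions. The one with the highest mean rank, chr10:108538671-108539074, lay 472269 bp downstream at the 82.9 percentile in non-SMC 1 and 87.9 in non-SMC 2. Another at 502514 bp was at the 97.1 percentile in non-SMC 1 and only at the 14.1 percentile in non-SMC 2. The strongest single *Syt1* peak of non-SMC, 429213 bp downstream at the 99.7 percentile in non-SMC 1 and the 84.3 percentile in non-SMC 2, was not counted as non-SMC-only because SMC 1 had a weak peak there, at the 19.7 percentile.

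*Rab3c* had 4 of its 5 SMC-only regions in introns between 110027 and 141610 bp downstream of the TSS. The strongest, chr13:110144488-110145449, lay 136163 bp downstream of the TSS at the 96.0 percentile in SMC 1 and 98.6 in SMC 2, with -log10 q of 12.4 and 29.8. The one with both E-boxes in its printed sequence, 130429 bp downstream, was at the 91.0 and 95.9 percentile. Those at 141610 and 110027 bp ranked from the 71.8 to the 90.9 percentile, and the fifth, beyond the 3′ end of the gene at 232085 bp, was at the 19.7 and 68.2 percentile. The same gene held the highest-ranked region of either pattern in the 9 windows, which was non-SMC-only. It lay at chr13:110229957-110230577 in an intron 50700 bp downstream, at the 99.4 percentile in non-SMC 1 and 99.9 in non-SMC 2, with -log10 q of 66.6 and 40.3, and neither SMC line had a peak in it. *Rab3c* therefore had regions of both patterns among the strongest of their lists.

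**Figure D2:**
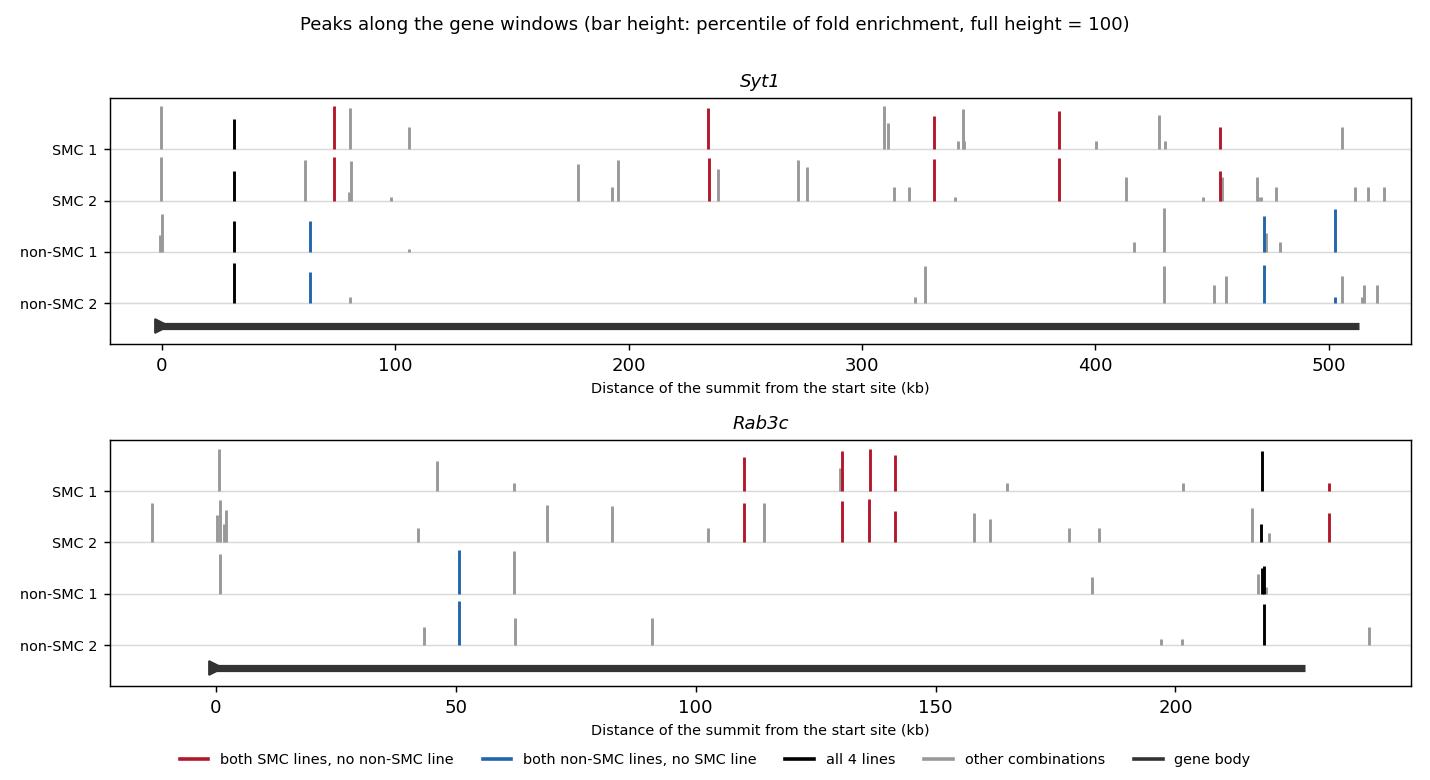
Summits of all peaks in the windows of *Syt1* and *Rab3c* by distance from the TSS in kb (horizontal axis) in each line, with bar height giving the percentile of fold enrichment in the list and color giving the lines that share the region. The 5 SMC-only regions of *Syt1* are spread over its introns, and 4 of those of *Rab3c* lie between 110 and 142 kb, while the tallest non-SMC-only bars are in *Rab3c* at 50.7 kb.

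The regions of one cell type in the other 7 windows were fewer. In *Snap25* the SMC-only region chr2:136724304-136724664 lay in an intron 11093 bp downstream, at the 88.1 percentile in SMC 1 and 92.2 in SMC 2, and the non-SMC-only region lay beyond the gene, 85873 bp downstream, at the 71.2 and 76.6 percentile. The SMC-only region of *Syt4* is the one upstream of its TSS given above, chr18:31449246-31449482. The SMC-only regions of *Stx1a*, *Rab3a* and *Sv2a* ranked low, from the 0.704 percentile for *Stx1a* in SMC 2 to the 78.5 percentile for *Rab3a* in SMC 2. The highest-ranked non-SMC-only region of *Stx1a* and that of *Vamp2* ranked above these SMC-only regions in both non-SMC lines. In *Stx1a*, chr5:135028856-135029487 in an intron 5588 bp downstream was at the 83.5 percentile in non-SMC 1 and 87.8 in non-SMC 2. A second one, 6253 bp downstream, was at the 66.0 and 72.5 percentile. In the *Vamp2* window, chr11:69078790-69079143 lay 9475 bp upstream at the 82.9 and 85.5 percentile. The other 2 were in introns of *Per1*, the neighboring clock gene. They were at the 54.1 and 58.9 percentile in non-SMC 1 and at 82.6 and 83.3 in non-SMC 2. The non-SMC-only regions of the *Rab3a* window were 11545 bp downstream, between genes, and 18383 bp downstream in an exon of *Pik3r2*. That of the *Sv2a* window was in an exon of *Sf3b4*, and none of these 3 ranked above the 65.1 percentile in either non-SMC line.

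**Figure D3:**
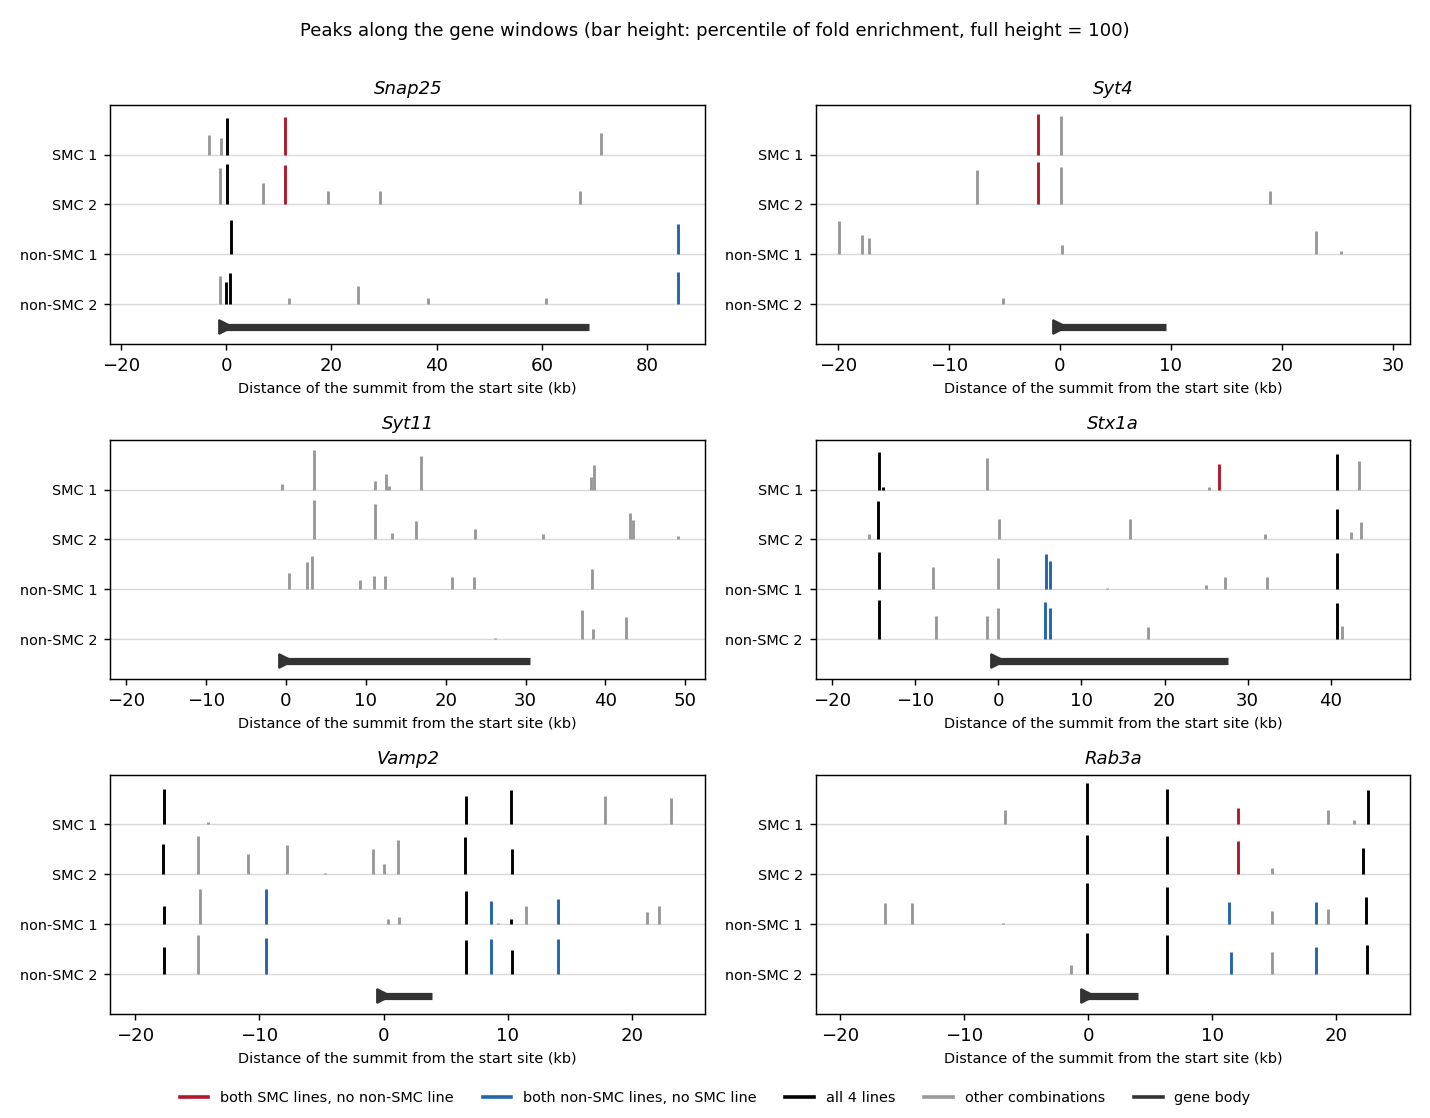
Summits of all peaks in the windows of *Snap25*, *Syt4*, *Syt11*, *Stx1a*, *Vamp2* and *Rab3a* by distance from the TSS in kb (horizontal axis) in each line, drawn with the same bar heights and colors as for *Syt1* and *Rab3c*. The SMC-only region of *Syt4* lies just upstream of its TSS, *Syt11* has no region of either pattern, and the non-SMC-only regions of *Vamp2* lie outside its body.

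The number of peaks was counted as a second measure and divided by the length of each list. In total the 9 windows held 69 peaks in SMC 1, 107 in SMC 2, 80 in non-SMC 1 and 64 in non-SMC 2, or 75.8, 69.5, 69.1 and 49.7 per 100000 listed peaks. The mean was 72.6 ± 4.44 (SD, n = 2) for SMC and 59.4 ± 13.7 (SD, n = 2) for non-SMC. The difference of 13.2 was slightly larger than the SD between lines of a type, 10.2, and SMC 2 and non-SMC 1 were nearly equal. *Syt1* and *Rab3c* had more peaks per 100000 in both SMC lines than in both non-SMC lines, 2 of 9 windows against 19.1% of all genes, and in none of the 9 windows were both non-SMC lines above both SMC lines, against 17.4% of all genes. This last number rose to 5 without non-SMC 2, for *Stx1a*, *Vamp2*, *Syt4*, *Rab3a* and *Sv2a*. Leaving out a line loosens the rule by construction, and the share of all genes in that setting is not given here. For *Syt1* the values were 19.8 and 19.5 in SMC 1 and 2 and 9.50 and 10.9 in non-SMC 1 and 2. For *Rab3c* they were 13.2 and 14.3 against 6.91 and 6.22. The differences of 9.44 for *Syt1* and 7.17 for *Rab3c* were larger than the SDs between lines, 0.705 and 0.654. They were at or above those of 99.1% and 98.3% of all windows, but both windows are long, and among the 931 windows of at least 250 kb, 30.4% had more peaks in both SMC lines. Within that class *Syt1* was at the 85.2 and *Rab3c* at the 78.2 percentile of the difference. Chromosome 10 as a whole held 4.60% and 5.06% of the peaks of SMC 1 and 2 and 3.36% and 3.33% of those of non-SMC 1 and 2. Per peak of their own chromosome, a scaling added once the data were seen, the SMC mean was 1.34 times the non-SMC mean for *Syt1* and 2.13 times for *Rab3c*, against 1.93 and 2.09 per peak of the whole list.

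The remaining 7 windows overlapped between the types. The SMC mean minus the non-SMC mean per 100000 peaks ran from -2.22 for *Vamp2* to 1.77 for *Syt11*, each smaller than its SD between lines. It was positive for *Snap25* and *Syt11* and negative for *Stx1a*, *Vamp2*, *Syt4*, *Rab3a* and *Sv2a*. The total difference over the 9 windows was thus smaller than that of *Syt1* and *Rab3c* together. The median difference over the 9 genes was -0.34, and over all protein-coding genes it was 0.

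Among strong peaks the result for numbers of peaks depended on how they were divided. The lists with a -log10 q of at least 5 held 13062 peaks in SMC 1, 26312 in SMC 2, 43984 in non-SMC 1 and 25103 in non-SMC 2, and 60 regions were left in the 9 windows. Of these, 9 were SMC-only and 9 non-SMC-only, while in the genome 6.12% and 20.1% of the regions left had these patterns. *Stx1a* and *Vamp2* then had more peaks per 100000 in both non-SMC lines, for which the share of all genes at this level is not given here. *Snap25*, *Syt1*, *Syt4*, *Syt11*, *Rab3c* and *Sv2a* had more in both SMC lines, 6 of 9 windows against 13.7% of all genes. By number alone, without dividing by the unequal lists, both SMC lines were above both non-SMC lines in only 3 of these 6 windows, those of *Syt1*, *Syt4* and *Rab3c*. *Syt1* had 7 and 9 such peaks in SMC 1 and SMC 2 and 6 and 4 in non-SMC 1 and non-SMC 2, and *Rab3c* had 4 and 7 against 3 and 2. *Syt4* had 2 in each SMC line, 1 in non-SMC 1 and none in non-SMC 2, and its promoter was SMC-only at this level. In SMC 1, SMC 2, non-SMC 1 and non-SMC 2, *Snap25* had 2, 3, 2 and 0, *Syt11* had 1, 2, 1 and 0, and *Sv2a* had 1, 4, 3 and 1, so the numbers of the types overlapped or tied. *Stx1a*, with 1, 1, 5 and 3, and *Vamp2*, with 0, 3, 7 and 5, had more in both non-SMC lines by number as well. A further alternative scaled pileup and background to the depth of SMC 1 and kept peaks with p up to 1e-05. It left 52 regions, with 9 SMC-only and 6 non-SMC-only, against 7.48% and 20.3% of the regions left in the genome. *Snap25*, *Syt1*, *Syt4*, *Syt11* and *Rab3c* had more peaks per 100000 in both SMC lines there, 5 of 9 windows against 16.4% of all genes. *Syt4* and *Syt11* had 2 peaks in SMC 1 and 1 in SMC 2 and none in non-SMC. By number alone *Rab3c* tied, with 7 and 3 against 3 and 2, and the scaled lists were again unequal, with 14361 peaks in SMC 2 and 29742 to 33071 in the other lines.

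**Figure D4:**
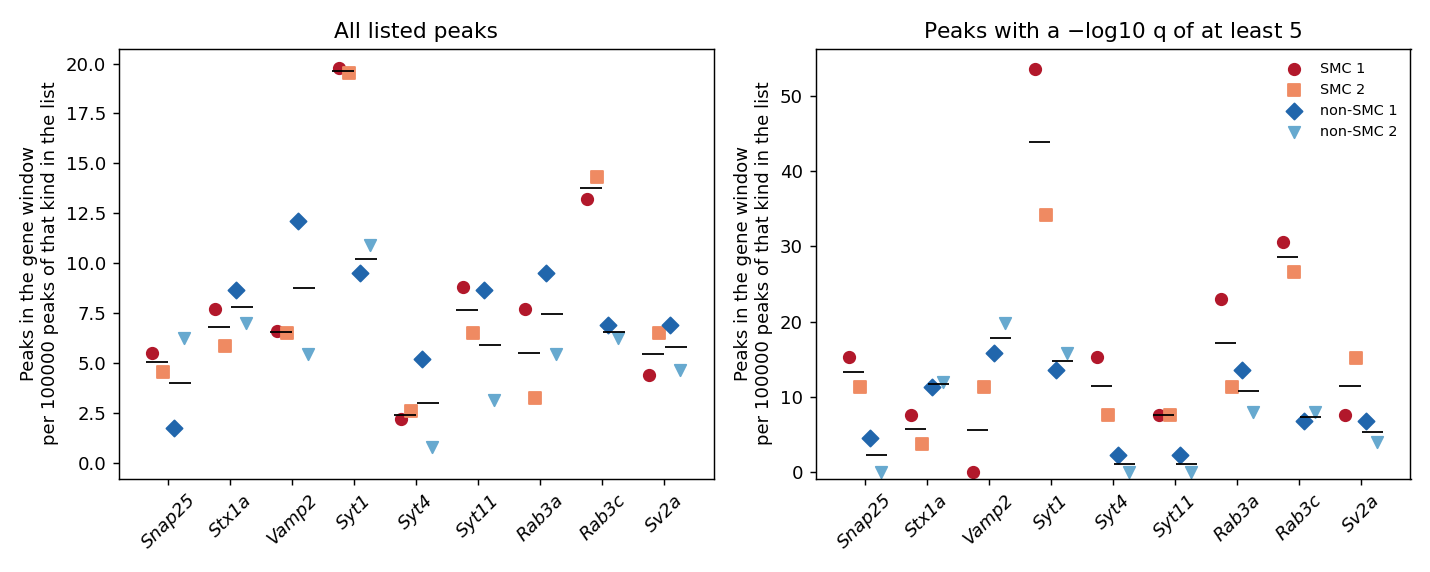
Peaks in each gene window per 100000 peaks (vertical axis) for all listed peaks on the left and those reaching a -log10 q of 5 on the right, with 1 point per line and black bars for the mean of the 2 lines of a type. On the left only *Syt1* and *Rab3c* have both SMC lines above both non-SMC lines, and on the right 6 genes do, while *Stx1a* and *Vamp2* show the opposite.

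Motifs were counted within 100 bp of each region's highest summit, on both strands, beside the share in all regions of the same pattern in the genome. The AP-1 motif TGANTCA was in 8 of the 13 non-SMC-only regions (61.5%, against 55.1% of all non-SMC-only regions), namely in those of *Syt1*, *Rab3c*, *Snap25*, *Vamp2* and *Rab3a* except for 1 each in *Syt1* and *Vamp2*. It was in 0 of the 15 SMC-only regions, against 6.55% of all SMC-only regions. The E-box CAGCTG was in 4 of the 15 SMC-only regions (26.7%, against 21.1%) and in 2 of the 13 non-SMC-only regions (15.4%, against 14.0%). The E-box CAGATG was in 2 of the 15 (13.3%, against 19.7%) and 3 of the 13 (23.1%, against 19.3%). The SOX motif ACAANG was in 6 of the 15 (against 49.8%) and 6 of the 13 (against 38.0%), and the TEAD core GGAATG in 1 of the 15 (6.67%, against 9.39%) and 2 of the 13 (15.4%, against 19.3%). The RUNX motif TGNGGT was in 5 of the 15 (33.3%, against 33.9%) and 6 of the 13 (46.2%, against 48.7%). The NFI half-site TTGGCA was in 2 of the 15 and 0 of the 13 (against 16.9% and 16.2%), the CRE TGACGTCA in 0 and 1 (against 0.359% and 0.450%), and the homeobox motif TAATTA in 0 of either (against 4.31% and 3.38%). A region could hold several of these motifs. For motifs found in at least 4 SMC-only or at least 4 non-SMC-only regions, the shares were within 10 percentage points of those of all regions of the same pattern. RE1 is the site of REST, a repressor of neuronal genes outside neurons. Its core, made of CAGCACC and GGACAG with 2 bases between them, was in none of the 211 regions and in 0.0196% of all regions. The SMC-only regions here had a median GC content of 46.3% and the non-SMC-only regions 52.2%, against 49.3% and 47.3% in the genome.

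Of 70 other genes of vesicle docking, priming, fusion, recycling and transmitter loading, 5 had an SMC-only promoter (7.14%, against 3.08% of all genes). A non-SMC-only promoter was found for 2 of the 70, against 2.45% of all genes. The 5 were *Ppfia2* and *Cadps2*, which act at the active zone and in vesicle priming, *Sv2b* and *Synpr*, which code for vesicle membrane proteins, and *Sh3gl2*, the endophilin of vesicle recycling. The 2 were *Syt10*, a synaptotagmin, and *Dnm1*, the dynamin that cuts vesicles from the membrane. A promoter peak in all 4 lines was found at 38 of the 70, against 48.7% of all genes. More peaks per 100000 were found in both SMC lines in 19 of their windows (27.1%, against 19.1% of all genes) and in both non-SMC lines in 12 (against 17.4%), and their median window of 100 kb was longer than that of all genes. *Cadps2*, the calcium-dependent activator of secretion, had 19.8 and 24.0 peaks per 100000 in SMC 1 and 2 against 4.32 and 6.22 in non-SMC 1 and 2, with 8 SMC-only regions. *Sv2b* had 15.4 and 15.6 against 2.59 and 8.55, where its relative *Sv2a* had 4.39 and 6.50 against 6.91 and 4.66. The non-SMC-only *Syt10* had 1.10 and 0 against 2.59 and 2.33, and *Dnm1* had 8.79 and 6.50 against 12.9 and 6.22. Differences of similar size in the other direction were found for *Dnm3*, with 12.1 and 14.9 against 30.2 and 24.9, *Rims2*, with 9.88 and 14.9 against 25.9 and 20.2, and *Unc13c*, with 1.10 and 1.30 against 8.63 and 14.0, genes named here after their values were seen.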

How the data were processed

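ATAC-seq peaks of a pair of SMC and a pair of non-SMC lines were analyzed. The authors mapped reads to mm10 with Bowtie2 2.3.4 and called peaks in each library with MACS2 2.1.1, versions given in the submitters' processing notes; the settings of the peak calling are not given in the sources used here. The deposited fold enrichment is a ratio, the summit pileup over the local background. The authors also gave the -log10 of its p-value and of its q-value. The deposited score was not used, and other deposited columns gave positions and summits.

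Genes and TSSs (the 5′ end of a gene) came from GENCODE release M21 on GRCm38, the assembly of mm10. Chromosomes 1 to 19, X and Y were used, with 91057 to 153954 peaks per library. Pileup and background were recovered from fold enrichment and p-value for 100% of peaks, and their lowest background gave the relative depth. On simulated data, 100% of 19335 peaks were recovered within 1%, and overlaps were checked against bedtools 2.31.1 on 500 windows. The background cannot fall below the genome-wide value. Reads were not analysed here.

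All 9 genes are described in every line, with the regions of each pattern and, in full, the one with the highest mean percentile. Of 71 listed vesicle genes 70 were found in the annotation, and those with a promoter of one pattern are named. The genes, lists, motifs and alternatives were chosen with earlier results of these data known. RefSeq promoter sequences were matched by symbol for 6 of the 9 genes. Alternatives were other q thresholds, list lengths, depths, flanks, promoter windows, overlaps and scalings, each library left out, and each pair alone. No test was made between types, and each line is a single library. Python 3.11.15, numpy 2.4.6, pandas 2.3.3, scipy 1.17.1, matplotlib 3.10.9 and samtools 1.23.1 were used.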

Additional observations from a re-analysis of the deposited data

Results flagged for a closer look

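In 4 of the 9 windows the difference in peaks per 100000 had opposite signs in pair 1 and pair 2. The SMC value minus the non-SMC value was 3.76 in pair 1 and -1.67 in pair 2 for *Snap25*, -5.50 and 1.06 for *Vamp2*, -2.98 and 1.82 for *Syt4*, and -2.51 and 1.83 for *Sv2a*. The difference between the pairs was not tested, because each pair holds 1 library of each type. In *Vamp2*, *Syt4* and *Sv2a* the deeper library of each pair had more peaks per 100000, and in *Snap25* the shallower one did. The part of depth in these values was not tested.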

How the results depend on the processing

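Values between lines rest on 2 libraries per type whose depth differed 3.37-fold, and a peak missing from a shallow list may lie below its threshold. In the 9 windows, SMC-only regions numbered 15 and were 9 at a -log10 q of at least 5 and 9 at scaled depth, 7 and 8 of which were among the original 15. Leaving out 1 library gave 17 to 78. Non-SMC-only regions numbered 13 and were 6 at scaled depth, 6 without flanks, 21 with flanks of 50 kb and 17 to 48 with 1 library left out. The number of genes with an SMC-only promoter was 0 and became 1 (*Syt4*) at a -log10 q of at least 5, at a q of at most 0.05, with equally many top peaks per list and at scaled depth, and 0 to 3 with 1 library left out. It was 3 without non-SMC 1, where 6.51% of all genes had an SMC-only promoter. No alternative gave a non-SMC-only promoter. Windows with more peaks in both non-SMC lines numbered 0, and were 2 at a -log10 q of at least 5, 1 with equally many top peaks and 1 without flanks, and with 1 library left out 2 without SMC 1, 1 without SMC 2, 1 without non-SMC 1 and 5 without non-SMC 2. The share of all genes was 17.4% with all 4 libraries and is not given here for the alternatives. The difference of 13.2 peaks per 100000 was 72.5 at a -log10 q of at least 5, 29.4 at a q of at most 0.05, 65.3 at scaled depth, 16 as a raw number, 291 per 100000 peaks of the same chromosome (added once the data were seen), and 3.58 to 22.9 with 1 library left out. The lowest of these was without non-SMC 2, and the total over the 9 windows, *Syt1* and *Rab3c* included, was higher in SMC in all of them. With all 4 libraries, the differences of *Syt1* (9.44) and *Rab3c* (7.17) together exceeded the total of 13.2. Those of *Snap25* and *Syt11* were positive and those of the other windows negative. The number of windows with more peaks in both SMC lines was 2, against 19.1% of all genes. It was 6 at a -log10 q of at least 5 (13.7% of all genes) and 5 at scaled depth (16.4%). With 1 library left out it was 2 to 5, against 28.5% to 40% of all genes. Within a pair the rule asks only that the SMC line be above the non-SMC line. This held for 4 windows in pair 1 and 6 in pair 2, and the share of all genes is not given here for the pairs. *Syt1* and *Rab3c* met the rule in each of these settings. The cause of these changes was not tested, except that leaving out a library loosens the rule by construction. No paired analysis was possible because the results come from no test, so the pairs are given as values. Within pair 1 the difference was 6.71 peaks per 100000 and within pair 2 it was 19.8.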

Other observations

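Some strong peaks in the windows of *Syt1* and *Rab3c* were found in a single line or in unequal strength in the lines of a type. A *Syt1* intron region 309406 bp downstream of the TSS, near the start of *Gm5136*, had a peak at the 99.6 percentile in SMC 1 with a -log10 q of 20.7, and no other line had a peak there, including the deeper SMC 2. A second *Syt1* region, at 343301 bp, had a peak at the 93.2 percentile in SMC 1 alone. In *Rab3c*, a region 62242 bp downstream was at the 97.9 percentile in non-SMC 1 with a -log10 q of 34.9, at the 61.1 percentile in non-SMC 2 and at the 19.7 percentile in SMC 1. It is the next region of *Rab3c* beyond the non-SMC-only one at 50700 bp that has a peak in both non-SMC lines. These regions were chosen after their values were seen.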
